A study of Homo sapiens with 6 samples.

Results

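The 7 genes described here are the aryl hydrocarbon receptor AHR, its dimer partner ARNT, its feedback inhibitors AHRR and TIPARP, and the CYP1 enzymes CYP1A1, CYP1A2 and CYP1B1. They were taken by symbol from 24462 distinct symbols in the counts of each library, and all 7 were found, each on a single entry. The set was chosen by the CYP1A1 counts of these same libraries, to which genes of its pathway were added, so the levels of its members are given as a description without p-values. Of the 7 genes, 6 had counts and passed the filter on low counts that left 12739 genes. CYP1A2 had no count in any library. The libraries came from H460, an established human cell line from a large-cell lung carcinoma. Depleted cells (3 libraries) spent 24 h in RPMI medium lacking glutamine, with dialyzed serum, and glutamine-replete cells (3 libraries) were the comparison. Both groups had been grown in RPMI medium with fetal bovine serum. The labels do not state which serum the replete cells had during those hours, so an effect of the serum and one of glutamine cannot be told apart. The labels name no separate cultures, and p-values therefore measure the spread between these libraries, which may be technical.

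AHR is a ligand-activated transcription factor of the bHLH-PAS family. It waits in the cytosol with HSP90 and its co-chaperones, and after binding a planar ligand, such as a combustion product or a tryptophan metabolite, it enters the nucleus, pairs with ARNT and binds xenobiotic response elements. The CYP1 genes are its best-known targets, and in lung epithelium their enzymes oxidize polycyclic aromatic hydrocarbons. AHRR and TIPARP are also AHR targets and close a negative loop, AHRR by competing for ARNT and TIPARP by ADP-ribosylating AHR. The comparison asks whether the rise of CYP1A1 in depleted cells went with that of these other targets.

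The sequences upstream of 4 of these genes are shown because the core of the xenobiotic response element, GCGTG, can be read in them directly. Windows of 250 bases before an annotated start were taken from RefSeq on GRCh38.p14, where 6 of the 7 genes had at least 1 window (CYP1B1 did not). Capitals mark GCGTG, or CACGC where the core lies on the other strand, with overlapping matches allowed. The same letters are also 1 form of the core bound by HIF factors with ARNT (ACGTG or GCGTG). CYP1A1 lies on the minus strand (chr15:74725529-74725778), CYP1A2 on the plus strand (chr15:74748595-74748844), AHRR on the plus strand with 2 windows (chr5:321464-321713 and chr5:322360-322609), and TIPARP on the plus strand (chr3:156674340-156674589, the first of its 3 windows).
CYP1A1: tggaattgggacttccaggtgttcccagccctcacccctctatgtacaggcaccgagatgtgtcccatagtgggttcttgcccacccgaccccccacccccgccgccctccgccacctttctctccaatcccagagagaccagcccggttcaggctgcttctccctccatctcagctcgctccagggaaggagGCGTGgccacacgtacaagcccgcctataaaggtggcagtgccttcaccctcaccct
CYP1A2: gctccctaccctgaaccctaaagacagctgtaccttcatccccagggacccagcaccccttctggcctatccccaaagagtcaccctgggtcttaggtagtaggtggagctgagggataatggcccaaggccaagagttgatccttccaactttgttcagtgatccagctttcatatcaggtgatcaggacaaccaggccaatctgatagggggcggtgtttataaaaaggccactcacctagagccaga
AHRR, first window: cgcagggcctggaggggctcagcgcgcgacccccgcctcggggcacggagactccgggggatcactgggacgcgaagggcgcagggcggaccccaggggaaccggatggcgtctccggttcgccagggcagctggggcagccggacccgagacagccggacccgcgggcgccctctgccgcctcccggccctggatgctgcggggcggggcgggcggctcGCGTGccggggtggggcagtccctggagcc
AHRR, second window: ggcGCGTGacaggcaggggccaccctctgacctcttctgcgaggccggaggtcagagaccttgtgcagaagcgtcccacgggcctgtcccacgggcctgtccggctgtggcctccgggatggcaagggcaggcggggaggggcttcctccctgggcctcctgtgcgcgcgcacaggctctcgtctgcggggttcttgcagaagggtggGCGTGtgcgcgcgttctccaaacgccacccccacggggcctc
TIPARP, first window: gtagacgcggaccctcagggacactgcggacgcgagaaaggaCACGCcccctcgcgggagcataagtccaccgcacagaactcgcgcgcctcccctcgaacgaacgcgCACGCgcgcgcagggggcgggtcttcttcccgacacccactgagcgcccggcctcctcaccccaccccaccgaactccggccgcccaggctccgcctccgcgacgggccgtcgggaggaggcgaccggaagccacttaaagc

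The CYP1A1 window held 1 core, whose first base lay 57 bases before the start. The AHRR windows held cores 30 bases before the first start and 247 and 42 bases before the second. The first TIPARP window held cores 208 and 142 bases before its start, both on the other strand, and its other windows held none. The windows of CYP1A2, AHR and ARNT held none, although the AHR entry had 1 within the 50 bases after its start. These letters are common: 53.7% of the 9485 tested genes with a window held at least 1 core, as did 53.5% of the genes that rose and 54.1% of those that fell. A match is a description of letters, not of binding.

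Library totals ran from 7550849 to 10914899 counts, and 3 counts, the upper limit that a count of 0 allows, stood for 0.275 to 0.397 CPM (the count as a share of the library's total). Such limits and the counting interval given below cover counting error only. Depleted replicate 2 stood apart within its group: the chi-square per degree of freedom was 17.97 against depleted replicate 1 and 10.86 against depleted replicate 3, and from 1.50 to 3.71 for all other pairs within a group. All 6 epithelial markers listed (KRT8, KRT18, KRT19, KRT7, EPCAM and CDH1) had counts, but only 4 of them passed the filter on low counts. The summed level of all 6 was 795 to 921 CPM in depleted and 2076 to 2101 CPM in replete libraries. Of the other marker lists, all 6 blood cell markers, all 5 fibroblast markers and 2 of 4 endothelial markers had counts, while CDH5 and VWF were at 0. The filter passed 3 fibroblast markers and no blood cell or endothelial marker. The blood cell list summed to 0.916 to 1.74 CPM in depleted and 0.662 to 1.39 in replete libraries, the endothelial list to at most 0.665 CPM, and the fibroblast list to 29.1 to 105 CPM in depleted and 15.7 to 29.8 in replete libraries. The part of these shifts in the results was not tested.

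CYP1A1, the inducible hydrocarbon-oxidizing enzyme whose rise prompted this set, had 427, 286 and 281 counts in the depleted libraries and 1, 0 and 0 in the replete libraries. Those counts correspond to 39.1, 32.8 and 32.4 CPM in depleted cells, and every depleted library was far above every replete one. In bulk RNA, more cells expressing a gene and more RNA per cell cannot be told apart. The ratio of counts per library total was 860.0 with an exact 95% counting interval of 154 to 34003. It rests on a single replete count: without replete replicate 1 it becomes a lower bound, at least 181-fold against 3 counts over the group. CYP1A2, a neighbour of CYP1A1 on chromosome 15 that is mainly active in liver, stayed without a count in all 6 libraries, which at this depth allows up to 0.397 CPM in the shallowest one.

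CYP1B1, a CYP1 enzyme of tissues outside the liver, was abundant in both groups. It had 1039, 1056 and 1031 CPM in depleted libraries and 491, 518 and 516 CPM in replete libraries. The groups were wide apart and each was tight, with a mean of 1042 ± 12.5 CPM (SD, n = 3) against 508 ± 14.9 CPM. Its log2 fold change was 1.26 (SE 0.06), relative to trimmed-mean scaling of the libraries as for all log2 fold changes here. With library totals alone, which move the median of all genes from −0.02 to −0.25, it was 1.04. In GENCODE 29, CYP1B1 shares exons with CYP1B1-AS1 and RMDN2 on the other strand, and no source says whether counting was stranded. Those genes had only 30 and 79 counts over all libraries.

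**Figure D1:**
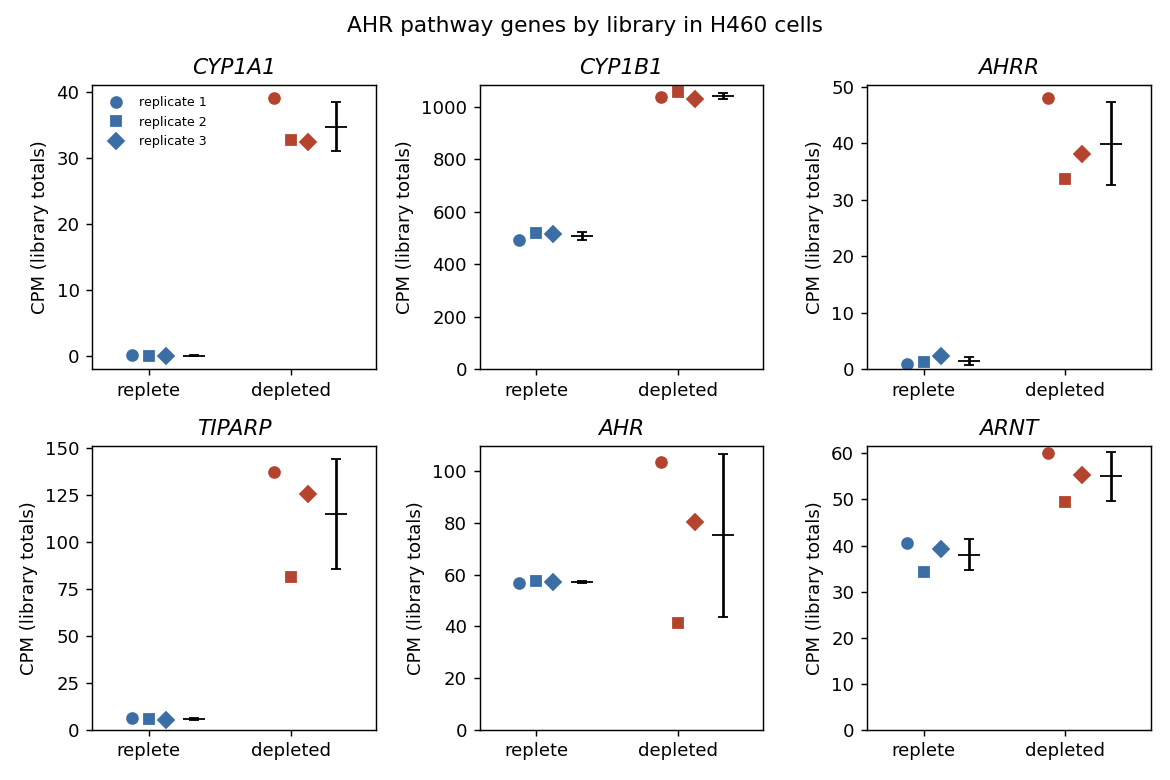
Each panel plots the CPM of 1 gene (linear axis) in the 3 replete (blue) and 3 depleted (red) libraries, with the mean and SD in black beside them and the marker shape giving the replicate number. CYP1A1, CYP1B1, AHRR, TIPARP and ARNT are higher in every depleted library than in any replete one, whereas AHR in depleted replicate 2, at 41.3 CPM, lies under all replete libraries.

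AHRR, the repressor that takes the place of AHR in the ARNT dimer, was close to silent in replete cells. It had 524, 294 and 330 counts in depleted libraries, or 48.0, 33.7 and 38.1 CPM, and 8, 10 and 17 counts in replete libraries, or 0.886, 1.26 and 2.25 CPM. The lowest depleted library was well above the highest replete one. The means were 39.9 ± 7.34 and 1.47 ± 0.705 CPM (SD, n = 3 each), and the log2 fold change of 5.01 (SE 0.24) ranked 110 of 12739 tested genes from the largest increase. AHRR shares exons with PDCD6, a calcium-binding protein gene on the same strand. PDCD6 was at 169 ± 6.46 CPM in depleted and 177 ± 3.15 CPM in replete cells. Its log2 fold change was 0.16 (SE 0.07). PDCD6 had 4787 counts over the depleted and 4325 over the replete libraries, against 1148 and 35 for AHRR. Their counts may be shared, and the part of this in the AHRR values was not tested.

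TIPARP, the mono-ADP-ribosyltransferase also called PARP7, had 137, 81.4 and 126 CPM in depleted libraries and 5.98, 5.43 and 5.03 CPM in replete libraries. All depleted libraries were above all replete ones, with replicate 2 the lowest of its group. The means were 115 ± 29.5 and 5.48 ± 0.476 CPM (SD, n = 3 each), and the log2 fold change was 4.61 (SE 0.22), rank 143 from the largest increase. TIPARP-AS1, which shares an exon with it on the other strand, had 51 counts over all libraries against 3433 for TIPARP.

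The receptor itself was uneven between depleted libraries. AHR had 104, 41.3 and 80.5 CPM in depleted replicates 1, 2 and 3, and 56.6, 57.6 and 57.1 CPM in the replete libraries. The groups overlapped, since depleted replicate 2 lay under all replete libraries and the other depleted libraries lay above them. The means were 75.2 ± 31.5 and 57.1 ± 0.494 CPM (SD, n = 3 each), with a log2 fold change of 0.63 (SE 0.34). Without depleted replicate 2 it was 0.93 (SE 0.08), and without depleted replicate 1 it was 0.33 (SE 0.28).

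ARNT, the partner that AHR shares with the hypoxia-inducible factors, had 60.2, 49.5 and 55.4 CPM in depleted libraries and 40.7, 34.2 and 39.2 CPM in replete libraries. Its groups did not overlap, but they were closer to each other than those of the targets. The means were 55.0 ± 5.36 and 38.0 ± 3.37 CPM (SD, n = 3 each), and the log2 fold change was 0.76 (SE 0.10), or 0.53 with library totals alone.

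Of the 6 genes tested, CYP1A1, CYP1B1, AHRR, TIPARP and ARNT were called in the test over all genes (edgeR, Benjamini-Hochberg threshold 0.05), each higher in depleted cells, where 39.1% of all tested genes were called higher. The same 5 genes were higher without overlap between the groups, against 33.2% of all tested genes. Because the set was drawn up from this contrast, nothing is read from these counts. The sizes differed among the members: by rank from the largest increase, CYP1B1 stood at 2154, ARNT at 3464 and AHR at 3894 of 12739, against 110 for AHRR and 143 for TIPARP.

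The members also differed in how far depleted replicate 2 fell short of the other depleted libraries. Its AHR level was 0.449 times the mean of depleted replicates 1 and 3, a ratio under which only 1.26% of 7802 genes with at least 10 CPM in depleted cells lay. For TIPARP the ratio was 0.620, with 4.18% of those genes lower, and for AHRR it was 0.782, with 14.4% lower. ARNT, at 0.856, and CYP1A1, at 0.916, were nearer to the median gene (1.00), and CYP1B1, at 1.02, was not reduced. CYP1A1 was at 32.8 CPM in depleted replicate 2, which had the least AHR, and at 32.4 CPM in depleted replicate 3. It was highest, at 39.1 CPM, in depleted replicate 1, which also had the most AHR. Whether CYP1A1 and AHR go together over so few libraries was not tested. Leaving out any 1 library kept a positive log2 fold change for each of the 5 members in the plot of left-out libraries.

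**Figure D2:**
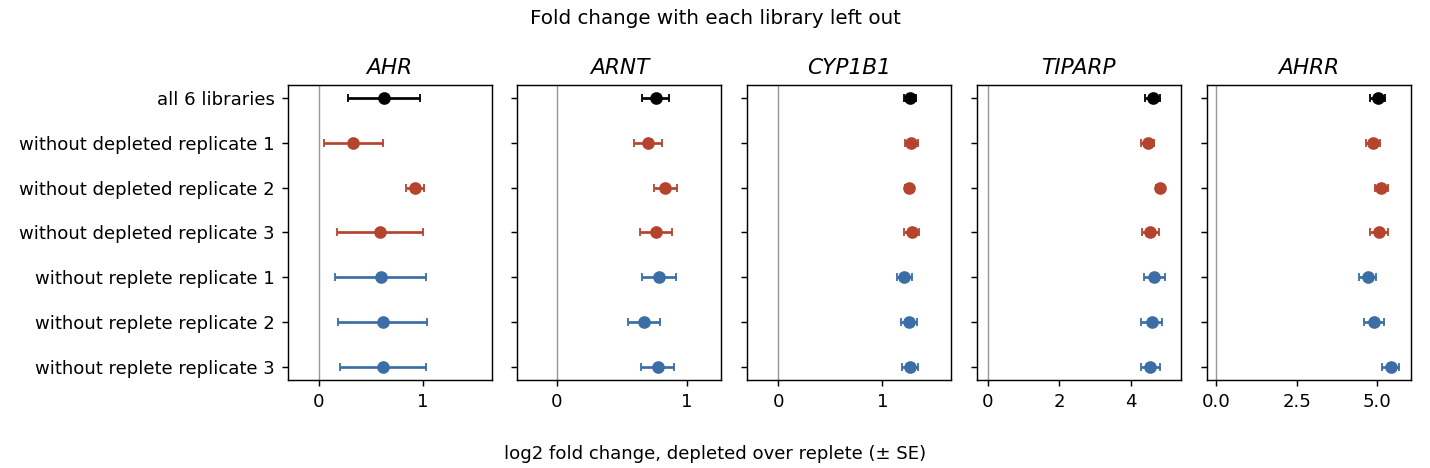
Each panel gives the log2 fold change, depleted over replete, of 1 gene with its SE (horizontal axis, its range set per gene), fitted on all 6 libraries (black) or without 1 depleted (red) or 1 replete (blue) library. AHR moves from 0.63 to 0.93 without depleted replicate 2 and to 0.33 without depleted replicate 1, while AHRR stays between 4.70 and 5.43.

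Other genes known as AHR targets in human cells, listed without a direction of regulation, moved in both directions. Of 21 listed, 15 could be tested; 9 rose, 4 fell and 2 did not pass (edgeR, adjusted p of 0.05), with a median log2 fold change of 0.57 against −0.02 for all genes, of which 39.1% rose and 39.4% fell. HES1, a Notch-linked repressor, rose from 8.53 ± 1.26 to 129 ± 16.8 CPM (SD, n = 3 each), a log2 fold change of 4.15 ± 0.14 (SE; adjusted p = 2.38e-11 in edgeR). PTGS2, the inducible cyclooxygenase, rose from 6.64 ± 1.69 to 29.8 ± 1.09 CPM (2.39), and the pro-apoptotic BAX rose by 1.58. Many of these genes answer to other stress pathways too, and whether such pathways took part here was not tested.

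Some genes of the list fell. ALDH3A1, an aldehyde dehydrogenase of the classical AHR gene battery, had 215, 198 and 196 CPM in depleted libraries and 754, 770.2 and 733 CPM in replete libraries. Every depleted library was under every replete one, and it fell by 1.66 on the log2 scale (SE 0.07; adjusted p = 1.19e-10 in edgeR). ABCG2, the drug efflux pump, fell from 48.0 ± 3.01 to 7.71 ± 1.32 CPM (adjusted p = 2.98e-09 in edgeR), a log2 fold change of −2.40, and SOS1, a RAS exchange factor, fell by 1.53.

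Some further genes of the list are named although the naming rule did not select them. NQO1 encodes the quinone reductase that AHR and NRF2 both induce, and H460 carries a mutation in KEAP1, the restrainer of NRF2. It had a log2 fold change of 0.02 ± 0.06 (SE; adjusted p = 0.714 in edgeR) at 2399 ± 129 CPM in depleted and 2760.1 ± 61.4 CPM in replete cells. With library totals alone its log2 fold change was −0.20 (adjusted p = 0.00489), and its adjusted p ran from 0.00489 to 0.992 over the alternatives. NFE2L2, which encodes NRF2, rose from 74.4 ± 6.78 to 268 ± 46.8 CPM. The growth factor EREG rose from 0.644 ± 0.342 to 6.07 ± 1.42 CPM. The cytokine IL6 showed the largest spread: it had 78.3, 3.21 and 37.1 CPM in depleted replicates 1, 2 and 3 and 64.0 to 83.6 CPM in replete libraries, so the groups overlapped (log2 fold change −0.69 ± 0.96, SE; adjusted p = 0.542 in edgeR). It was −1.67 without depleted replicate 1 and −0.14 without depleted replicate 2, and neither passed. Of the 6 untested genes, UGT1A1, UGT1A6, GSTA1 and GSTA2 had no count in any library, CYP2S1 had 10 counts and IL1B 18.

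**Figure D3:**
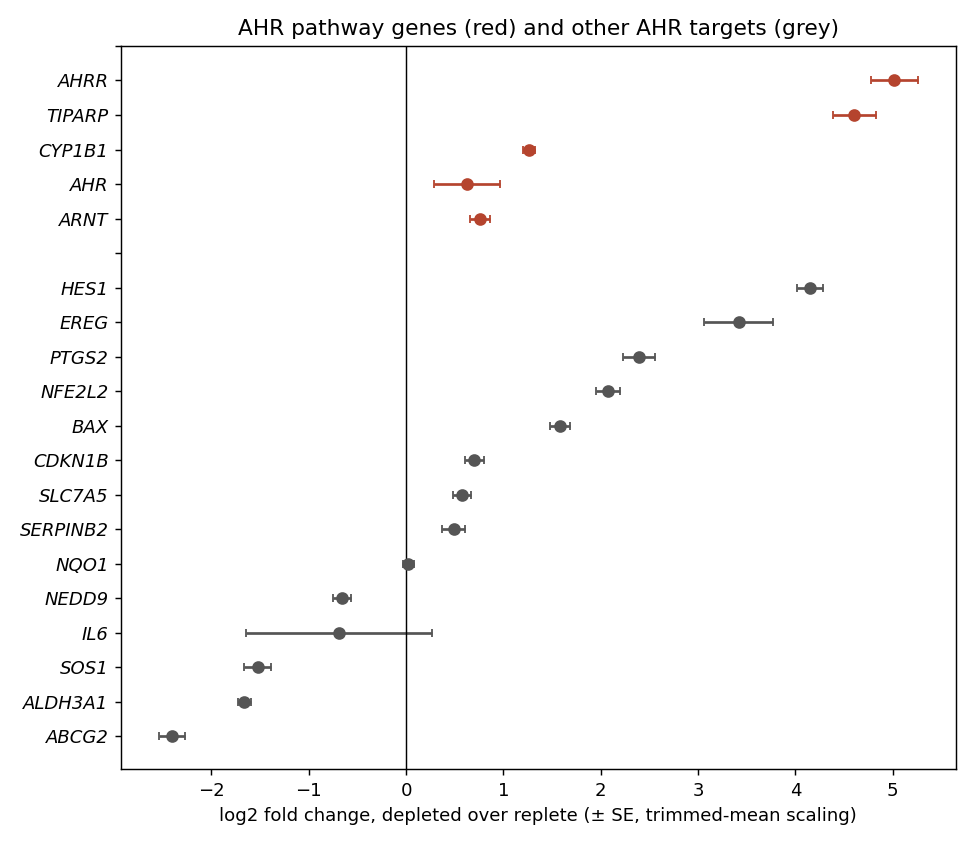
The horizontal axis gives the log2 fold change, depleted over replete, with its SE for 5 AHR pathway genes (red) and 14 of the 15 tested genes of the list of other AHR targets (grey). One tested gene of the list is not shown, and CYP1A1 is left out because it had 1 replete count. AHRR, at 5.01, and TIPARP, at 4.61, lie above HES1, at 4.15, whereas ALDH3A1 and ABCG2 lie at −1.66 and −2.40.

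Of 18 genes listed for the supply of tryptophan-derived AHR ligands, 9 were tested, of which 3 rose and 4 fell (median log2 fold change −0.22). That is near the shares over all tested genes (39.1% higher and 39.4% lower), so it is not a result about the list. SLC3A2, the heavy chain of the tryptophan and leucine importer, rose from 159.6 ± 4.26 to 777 ± 49.8 CPM (2.51), and its light chain SLC7A5, which is also on the list of AHR targets, rose from 209.6 ± 9.51 to 266 ± 32.9 CPM (0.57, edgeR adjusted p = 7.53e-05). KYNU, the kynureninase that breaks down kynurenine, rose by 1.65, from 254 ± 14.0 to 682 ± 163 CPM. KMO, kynurenine monooxygenase, fell from 294 ± 15.6 to 114 ± 7.96 CPM, but its exons overlap OPN3 on the other strand, which had 10311 counts against 10409 for KMO, so their counts may be shared. The kynurenine aminotransferase CCBL1 fell from 34.6 ± 2.59 to 2.64 ± 1.69 CPM (−3.50, or −4.12 without depleted replicate 2), and MAOA, monoamine oxidase A, fell by 1.57. The enzymes that open the tryptophan ring were hardly measured: TDO2 had 22 counts over the depleted and 14 over the replete libraries, IDO1 had 4 and 2, and neither reached the filter. The light chain SLC7A8, also untested, had 11 and 43.

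In the cytosolic receptor complex, 1 of 5 genes rose and 3 fell (median log2 fold change −0.88), against 39.1% and 39.4% of all tested genes. The HSP90 genes HSP90AA1 and HSP90AB1 fell from 4275 ± 113 to 1097 ± 57.8 CPM (−1.74, edgeR adjusted p = 3.57e-11) and from 5209 ± 104 to 2123 ± 36.2 CPM (−1.07). The ubiquitin ligase STUB1 fell by 0.88, but its exons overlap JMJD8 on the other strand, which had 4020 counts against 3309 for STUB1, so their counts may be shared. The co-chaperone PTGES3, also called p23, rose by 0.37 (edgeR adjusted p = 7.99e-05).

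Among 11 nuclear coregulators, 5 rose and 3 fell (median log2 fold change −0.03), and with library totals alone 5 fell. Over all tested genes 39.1% rose and 39.4% fell, and nothing about the list is read from counts this close to those shares. The acetyltransferases CREBBP and EP300, which serve as coactivators, rose from 24.6 ± 2.64 to 109 ± 3.23 CPM (2.37, edgeR adjusted p = 1.76e-10) and from 17.7 ± 0.210 to 64.9 ± 0.680 CPM (2.10). NRIP1, a ligand-dependent corepressor, rose by 1.77. The corepressor NCOR1 fell by 0.73, and the remodeling ATPase SMARCA4 fell by 0.82.

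Among the other bHLH-PAS genes, relatives of AHR and ARNT, 8 of 13 listed were tested, of which 4 rose and 2 fell (median log2 fold change 0.52). Beside the 39.1% higher and 39.4% lower of all tested genes, nothing about the family is read from counts of so few genes. ARNTL, the clock factor BMAL1, rose from 4.51 ± 0.453 to 24.7 ± 4.24 CPM (2.68), SIM2 rose from 7.04 ± 1.14 to 35.9 ± 1.27 CPM (2.57), and EPAS1, which encodes HIF-2α and dimerizes with ARNT, rose from 38.1 ± 2.40 to 92.3 ± 1.81 CPM (1.50, edgeR adjusted p = 4.11e-09). HIF1A, named outside the rule as the other main partner of ARNT, rose from 83.9 ± 1.50 to 161 ± 12.9 CPM (1.17). ARNTL2 fell from 5.02 ± 0.688 to 1.48 ± 0.496 CPM, and CLOCK fell by 0.55, although it overlaps TMEM165 on the other strand. NPAS1 and NPAS3 did not reach the filter, with 37 and 18 counts over the depleted and 4 and 2 over the replete libraries.

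P450 genes outside the CYP1 family were mostly too low to test, and those tested moved in both directions. Of 53 other P450 symbols, 33 had a count and only 10 could be tested; 3 of these rose and 2 fell (median log2 fold change −0.01), while with library totals alone 4 fell (39.1% of all tested genes rose and 39.4% fell). CYP26B1, which breaks down retinoic acid, rose from 2.23 ± 0.716 to 21.7 ± 1.52 CPM (3.51, edgeR adjusted p = 3.23e-09). CYP27B1, the vitamin D 1-alpha-hydroxylase, rose by 1.71. It shares exons with METTL1 on the same strand, which had 1500 counts against 277 for CYP27B1, so their counts may be shared. CYP20A1, a P450 without an assigned substrate, rose by 1.03. CYP4F11, a fatty acid hydroxylase, fell from 51.1 ± 2.38 to 27.3 ± 3.05 CPM. The steroid 21-hydroxylase CYP21A2 fell by 1.09 at 2.56 ± 0.157 CPM or less, and its counts are uncertain because it has a near-identical pseudogene and overlaps TNXB. Among untested symbols with more than 10 counts, CYP39A1 had 16 counts over the depleted and 33 over the replete libraries, CYP3A5 had 28 and 8, CYP4F3 had 6 and 9, and CYP19A1 had 7 and 4.

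A microsomal P450 protein depends on electron donors and heme. Of 11 genes for these, 0 rose, 9 fell and 2, ALAD and UROS, did not pass (median log2 fold change −1.12), where 39.1% of all tested genes rose and 39.4% fell. At an unadjusted p of 0.05 in edgeR, 0 were higher, as with DESeq2 and limma-voom and with each library left out in turn. CPOX, coproporphyrinogen oxidase, fell from 19.6 ± 2.01 to 1.66 ± 0.981 CPM (−3.35, edgeR adjusted p = 7.59e-08), and UROD, the decarboxylase before it, fell from 70.2 ± 5.23 to 27.6 ± 2.27 CPM. Cytochrome b5, encoded by CYB5A, fell by 0.94. Added outside the naming rule, the P450 reductase POR fell from 35.5 ± 4.80 to 13.8 ± 2.96 CPM, ferrochelatase FECH, which inserts the iron, fell by 1.17, and ALAS1, the rate-setting first enzyme of heme synthesis, fell by 0.75. POR overlaps TMEM120A on the other strand, which had 2302 counts against 1262 for POR, so their counts may be shared.

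Of 15 enzymes that act after CYP1 oxidation, 10 were tested, and 0 rose and 9 fell (median log2 fold change −0.80), beside 39.1% and 39.4% of all tested genes. Here too 0 were higher at an unadjusted p of 0.05 in edgeR, with DESeq2 and with limma-voom. GSTO1, an omega-class glutathione transferase, fell from 366 ± 6.25 to 59.2 ± 5.89 CPM (−2.40, edgeR adjusted p = 5.34e-11). EPHX1, the epoxide hydrolase that acts with CYP1 enzymes on aromatic hydrocarbons, fell from 38.5 ± 0.834 to 4.24 ± 0.471 CPM (−2.96). Its exons overlap TMEM63A on the other strand, which had 788 counts against 1062 for EPHX1, so their counts may be shared. The sulfotransferase SULT1A1 fell by 2.06, and its close paralogs can share its reads. One of these, SULT1A2, did not reach the filter, with 4 counts over the depleted and 11 over the replete libraries.

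**Figure D4:**
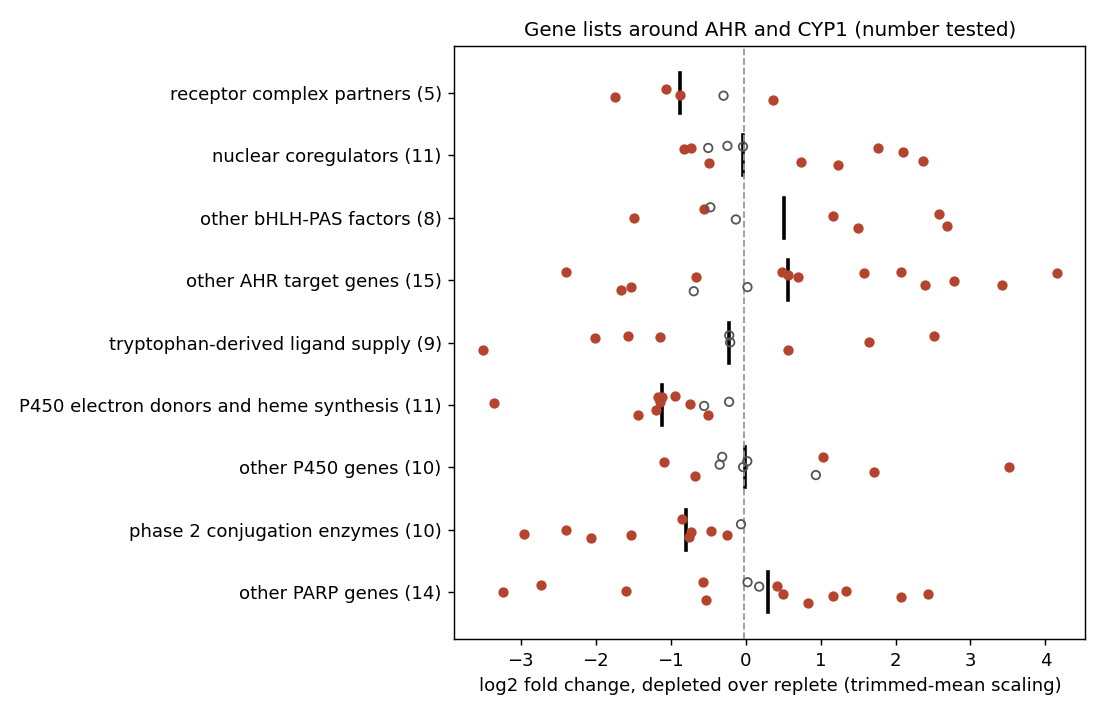
Each point is the log2 fold change, depleted over replete, of 1 tested gene; filled red points passed an adjusted p of 0.05, open points did not, black bars are list medians and the dashed line is the median of all tested genes. The vertical position within a list is spread at random. The electron donor and heme list, with 0 higher and 9 lower, and the conjugation list, also with 0 higher and 9 lower, lie to the left, while the list of other AHR targets runs from −2.40 to 4.15.

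TIPARP was set beside the rest of its enzyme family. Of 14 other PARP genes tested (16 listed), 7 rose (6 with DESeq2) and 5 fell (median log2 fold change 0.30), near the 39.1% and 39.4% of all tested genes. None had a log2 fold change as large as the 4.61 fitted for TIPARP. PARP11, like TIPARP a mono-ADP-ribosyltransferase, rose from 2.97 ± 0.561 to 13.7 ± 0.657 CPM (2.43), PARP6 rose by 2.07 and tankyrase TNKS by 1.35. PARP1, the main DNA damage sensor of the family, fell from 300.2 ± 8.11 to 27.2 ± 6.64 CPM (−3.23, edgeR adjusted p = 6.18e-09). PARP9 fell by 2.74, but it overlaps DTX3L on the other strand. DTX3L had 1325 counts against 395 for PARP9, so their counts may be shared. PARP12 fell by 1.59. PARP10 did not reach the filter, with 1 count over the depleted and 17 over the replete libraries.

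The genes whose levels were most like those of CYP1A1 were found by the mean absolute difference in log2(CPM + 1) over the 6 libraries. ALOXE3, a lipoxygenase-family enzyme, was nearest (0.10), followed by COL5A3, a collagen chain (0.11), LOC100505715 (0.18), EGR4, an early growth response factor (0.20), and LOC101927623 (0.29). COL5A3 had 39.8, 40.1 and 31.3 CPM in depleted libraries and 3 counts over the replete libraries, and EGR4 had 44.3, 45.9 and 38.9 CPM and 3 counts. All 5 were thus near 0 in replete cells. In each of the 5, depleted replicate 2 was the highest of its group, whereas for CYP1A1 it was depleted replicate 1, at 39.1 CPM.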

How the data were processed

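RNA of 6 H460 libraries (3 glutamine-depleted, 3 replete) was sequenced from the 3′ end with the Lexogen QuantSeq kit on 500 ng of total RNA, per the labels' protocols. The authors deposited raw counts per gene symbol, 1 file per library; the unit was checked on the values. Bowtie2, edgeR and hg19 are named in the submitters' processing notes, with no role. Counting program, strand use and annotation are not given in the sources used here. Gene models (GENCODE 29) and promoter windows are on GRCh38, so genes carry no other positions.

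Each file had 25737 entries; counts of 286 symbols on several entries were summed. Totals of 7550849 to 10914899 counts set the precision. Genes passing edgeR's filterByExpr (minimum count 10, minimum total 15) were scaled by trimmed-mean factors and tested two-sided in edgeR 4.0.16 (R 4.3.3; quasi-likelihood, robust) with Benjamini-Hochberg adjustment over all genes and a threshold of 0.05. The SE is the log2 fold change over the root of the F statistic. The test was run on simulated counts with few changed genes and the same dispersion in every library. Here most genes were called and depleted replicate 2 stood apart, so that run does not measure the error rate in these data. CPM uses library totals. Lists are described by counts and medians.

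The members and lists were chosen with earlier results of these data known. Named were the members, from each list the 3 called genes with the lowest p per direction, untested list genes with more than 10 counts, and the 5 genes most like CYP1A1; others are marked, and a few are not reported here. Alternatives were DESeq2 size factors, library totals, upper quartile factors, filtering at a mean CPM of 10 or not at all, a replicate block, each library left out, DESeq2 1.42.0 and limma-voom (limma 3.58.1). Trimmed-mean scaling of the CYP1A1 ratio was added after seeing the data. Of 57 list and similar genes checked, 14 share exons with another counted gene.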

Additional observations from a re-analysis of the deposited data

How the results depend on the processing

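Of 1150 values recomputed under the alternatives, 1128 were recorded as kept. For named list genes this means the same direction and side of the threshold. For members it means a value within their spread or counting interval. Counts of called genes were recorded as kept after modest changes, such as from 3 to 4 other P450 genes called higher with the replicate block. The median log2 fold change over all genes was recorded as kept in all 14 alternatives without a check. CYP1B1 moved by more than its spread to a log2 fold change of 1.04 with library totals, 1.05 with upper quartile factors, 1.16 with a mean CPM of at least 10 and 1.21 without replete replicate 1. With single libraries left out it ran from 1.21 to 1.28, within its spread except for that library. ARNT moved to 0.53 with library totals and 0.55 with upper quartile factors. Genes called lower became 5 nuclear coregulators with library totals, 1 bHLH-PAS factor and 3 PARP genes with a mean CPM of at least 10, and 4, 4 and 1 other P450 genes with library totals, upper quartile factors and a mean CPM of at least 10. Without a count filter, 5 other P450 genes were called higher. NQO1, near 0, changed sign to −0.20 with library totals, −0.18 with upper quartile factors, −0.075 with a mean CPM of at least 10, −0.019 without depleted replicate 2 and −0.018 without replete replicate 1, within −0.019 to 0.061 over left-out libraries. For these the cause was not tested. The CYP1A1 ratio ran from at least 181 to 889 with single libraries left out and was 1006 with trimmed-mean factors. The number of members called was 5 in each alternative except without depleted replicate 2, where AHR also passed and it was 6. Whether replicate numbers pair the libraries could not be settled. Same-numbered deviations correlated at 0.12, 0.01 and 0.04, and different-numbered ones at −0.09 to 0.05. Depleted replicates 1 and 3 correlated best with their own number, and depleted replicate 2 did not. With 3 libraries per group, such correlations cannot decide the question. With the replicate block, 9940 genes and 5 members were called. Low counts limit CYP1A2, the replete level of CYP1A1 and most P450 genes.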
